A study of Mus musculus with 2 samples.

Results

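The 10 genes described here belong to the stem cell SOX and Notch programme of the pituitary: the SOX transcription factor genes Sox2, Sox9 and Sox11, the Notch receptor genes Notch1, Notch2 and Notch3, the ligand gene Jag1, the Notch target genes Hes1 and Hey1, and the homeobox gene Prrx1. They were picked by symbol, and all 10 of 10 were found among the 32285 genes counted. The data are droplet-based 3' single-cell RNA counts of whole pituitaries from male C57BL/6 mice, an inbred laboratory strain without any listed transgene or treatment. Glands of 10 mice were pooled into 1 library at 2 months, called young, and glands of 10 mice into 1 library at 20 months, called old. With 1 library per age no difference between ages can be tested. Each value stands without a replicate check, and each interval is a 95% interval that covers counting error only.

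SOX2 is a transcription factor that marks the stem cells of the postnatal pituitary and is needed for the gland to form. SOX9 is found with it in much of that population, and SOX11 belongs to another SOX subgroup, known from differentiating progenitors of the nervous system and other organs. In Notch signalling a ligand such as JAG1 on one cell binds a Notch receptor on its neighbour, the receptor is cut by gamma-secretase, and its inner part joins the DNA-binding protein RBPJ to switch on repressor genes of the HES and HEY families. In the pituitary the pathway is known for holding progenitors back from differentiation, and in vessels for patterning endothelial and mural cells. PRRX1 is a homeodomain factor of mesenchyme that has also been described in pituitary progenitors.

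The 2-month library gave 154510099 UMIs (unique molecular identifiers, each a captured transcript) and the 20-month library 138427393. After filtering and removal of likely doublets, 8531 young and 9017 old barcodes were kept. Of the old ones, 5544 lay in a cluster whose profile correlated with that of empty droplets at r = 0.999 over genes, a description since genes are not independent, and 1 young barcode lay there. That cluster is left out of all classes below. The libraries shared 26 of the kept cell barcode sequences. Clusters were named from marker genes that included none of the 10 genes, and neither these genes nor the gene lists used below took part in the clustering. The stem cell-like class, 979 young and 281 old cells with medians of 6391 and 7992 UMIs, was led by Rbpms, Aldh1a2 and Cyp2f2, and Sox2 was among the 10 leading genes of its cluster although it had no part in making it. All 7 stem cell markers had UMIs there in both libraries. The same was true of somatotroph-like, endothelial cell-like and macrophage-like cells, so it does not set the class apart. Levels are counts per 1000000 UMIs (CPM), hormone and mitochondrial genes not included, and a ratio is the old level over the young one. The 3' tags are not scaled to gene length, so each gene is compared with itself across classes and ages. Where genes are listed by CPM, or as a share of pooled UMIs, the order or share counts captured tags. It is not read as a comparison of expression between genes. Free RNA was measured in empty droplets, barcodes of at most 100 UMIs, and those levels are given where a value comes near them.

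**Figure D1:**
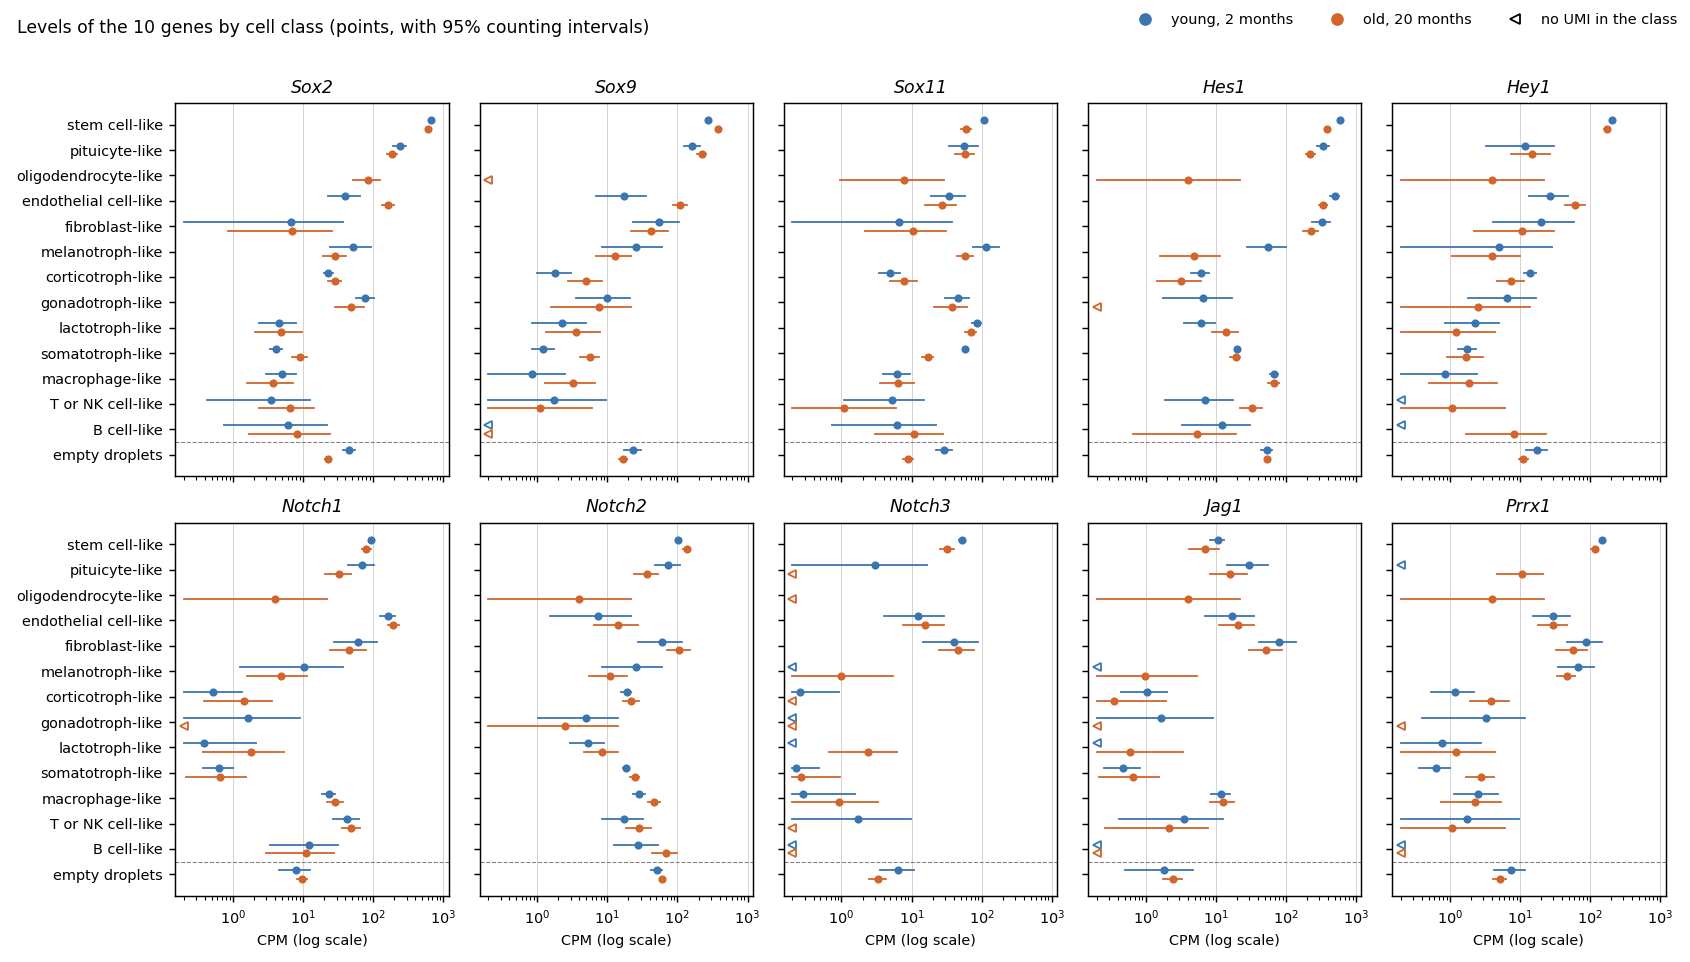
Level of each of the 10 genes in CPM (log axis, horizontal) by cell class and in empty droplets (vertical axis), for the young and old library. Points are sums over the cells of a class, bars are 95% Poisson intervals drawn down to 0.2 at the lowest, and open triangles mark classes with no UMI. Sox2, Sox9 and Hey1 stand highest in stem cell-like cells in both libraries, Notch1 in endothelial cell-like cells and Jag1 in fibroblast-like cells.

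In stem cell-like cells, 8 of the 10 genes were lower and 2 higher in the old library, and none was 2-fold apart. Sox2 itself stood at nearly the same level at both ages, while Sox11, Notch3, Hes1 and Jag1 had the lowest ratios and Sox9 and Notch2 were above 1. With at least 20 UMIs required, all 10 genes could be measured, 0 of 10 were at least 2-fold lower and 0 of 10 at least 2-fold higher. Among all 12936 genes measured in the class, 5970 had a ratio below 1 and 6966 a ratio above 1. The shares at least 2-fold apart were 2.06% lower and 4.22% higher. The median log2 ratio was −0.30 over the 10 genes and 0.03 over all genes measured, a description to which no test was attached.

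Sox2 stood at 668 CPM in young and 602 in old stem cell-like cells, a ratio of 0.901 (0.849 to 0.956). Without removal of doublets the ratio was 0.991. After each cell was thinned to 2000 UMIs, 60.8% (57.6 to 63.8) of young and 57.7% (51.6 to 63.5) of old stem cell-like cells had a Sox2 UMI, with overlapping intervals. Without thinning the shares were 86.9% and 85.8%. In T or NK cell-like cells, blood cells taken as lacking Sox2, thinned shares were 0 of 147 young cells, which allows up to 2.04% by a limit of 3 counts and 2.48% by the exact interval, and 1.78% of 169 old cells, at medians of 3998 and 5437 UMIs.

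Sox9 went the other way. It stood at 277 CPM in young and 375 in old stem cell-like cells, a ratio of 1.35 (1.25 to 1.46), and its thinned share of cells was 29.7% (26.9 to 32.7) and 40.2% (34.4 to 46.2). No T or NK cell-like cell had a thinned Sox9 UMI in either library (exact intervals from 0 to 2.48% and from 0 to 2.16%). Of the Sox2 and Sox9 UMIs of the class, Sox9 made up 29.4% (28.3 to 30.5) at the young and 38.4% (36.4 to 40.4) at the old age. Empty droplets had 33.6% (26.0 to 41.7) and 42.3% (38.5 to 46.2), in the same direction but with overlapping intervals. The ratio of Sox9 lay between 1.27 and 1.45 in all 16 other settings, which include subtraction of free RNA at 10% of the class's UMIs.

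Sox11 had the lowest ratio of the 10 genes. Its level was 109 CPM in young and 60.3 in old stem cell-like cells, a ratio of 0.552 (0.459 to 0.659), and the ratio lay between 0.515 and 0.561 in all 16 other settings. Its thinned share was 15.6% (13.4 to 18.1) and 8.90% (5.84 to 12.9). Free RNA held 29.5 CPM of Sox11 in young and 8.87 in old empty droplets, and the level within stem cell-like cells was above that in both libraries.

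Of the Notch receptors, by CPM, Notch3 was lower, Notch2 higher and Notch1 little different in old stem cell-like cells. Notch1 stood at 93.6 and 79.4 CPM, a ratio of 0.848 (0.719 to 0.997). As a mean over cells the ratio of Notch1 was 1.00, and its thinned share of cells, 13.5% and 17.1%, went against the CPM, so no order of age is read for it. Notch2 stood at 101 and 136 CPM, a ratio of 1.34 (1.17 to 1.53). Its thinned shares were 17.0% (14.0 to 20.2) and 22.2% (16.1 to 29.4) among cells with a Sox2 UMI. Among cells without one they were 16.9% (13.3 to 21.1) and 13.4% (7.88 to 20.9). These intervals overlap between the libraries, so the share of cells with Notch2 gives no order of age. Empty droplets held 50.3 and 59.8 CPM of Notch2, above its level in the hormone-making classes. Barcodes of 500 to 900 UMIs held 19.8 and 45.6 CPM. Young somatotroph-like and corticotroph-like cells, at 18.3 and 18.8, were close to the young value. Old cells of these classes, at 24.6 and 21.7, were below the old value. Notch3 stood at 53.3 and 32.4 CPM, a ratio of 0.609 (0.471 to 0.778), with thinned shares of 8.99% and 6.41% and free RNA levels of 6.46 and 3.30 CPM. Split by Sox2, the intervals of the Notch3 shares overlap between the libraries, at 6.30 to 10.9% and 4.34 to 13.3% with a Sox2 UMI. Without one they were 7.10 to 13.3% and 1.38 to 9.53%. In 33.6% (30.6 to 36.7) of young and 36.7% (31.0 to 42.6) of old thinned stem cell-like cells a UMI of at least 1 of the 3 receptors was found. All 3 were found in 3 young cells and 1 old cell.

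Jag1, the only ligand among the 10 genes, was sparse in stem cell-like cells. Its 78 young and 17 old UMIs gave 10.6 and 7.07 CPM, a ratio of 0.665 (0.369 to 1.13) whose interval holds 1. Among the other ligands and ligand-like genes of a list of 46 further Notch pathway genes, Dll1, which encodes a canonical ligand, was lower, with 45 and 5 UMIs, 6.13 and 2.08 CPM and a ratio of 0.339 (0.105 to 0.851). Dner, a gene for a ligand-like membrane protein of neurons, was higher, at 12.0 and 29.1 CPM and a ratio of 2.43 (1.75 to 3.36). Jag2 had 17 and 5 UMIs. Dlk1, which encodes a non-canonical ligand-like protein and is abundant in somatotroph-like cells, stood at 207 and 361 CPM in stem cell-like cells, beside 4155 and 3151 in somatotroph-like cells.

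Of the target genes, Hes1 was lower and Hey1 somewhat lower in old stem cell-like cells. Hes1, an oscillating repressor that keeps progenitors undifferentiated, stood at 588 and 389 CPM, a ratio of 0.661 (0.615 to 0.710). The ratio was 0.735 without removal of doublets and 0.740 as a mean over cells. Its thinned share of cells was 44.7% (41.6 to 47.9) and 38.1% (32.4 to 44.0). Hey1 stood at 205 and 173 CPM, a ratio of 0.842 (0.754 to 0.939), and at thinned shares of 26.7% (23.9 to 29.5) and 20.3% (15.7 to 25.5). Other targets gave no common picture. Hes6 stood at 90.6 and 65.3 CPM, Hey2 at 142 and 146, Heyl at 29.3 and 27.4 and Nrarp at 33.0 and 33.7, while Hes5 had 9 young UMIs and 0 old ones.

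**Figure D2:**
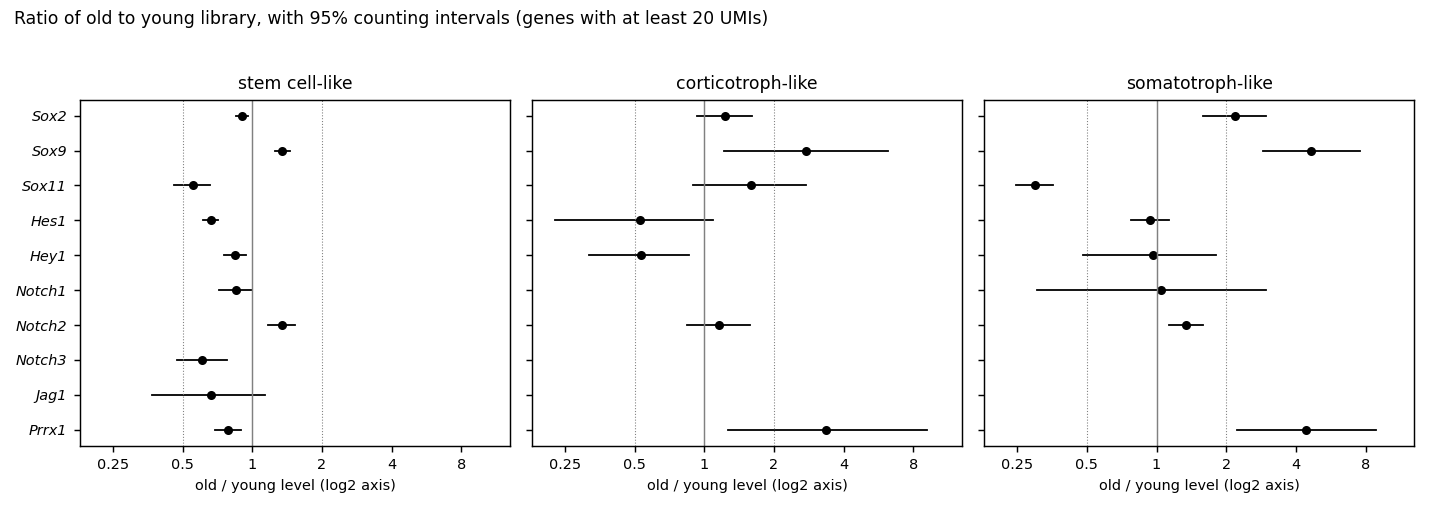
Ratio of the old to the young level (log2 axis) for the genes with at least 20 UMIs over both libraries, in stem cell-like, corticotroph-like and somatotroph-like cells. Bars are 95% counting intervals, the solid line marks equal levels and the dotted lines 2-fold. In stem cell-like cells the points of all 10 genes lie inside the dotted lines, with Sox9 and Notch2 to the right of equality. The intervals of Sox11 (0.459 to 0.659), Notch3 (0.471 to 0.778) and Jag1 (0.369 to 1.13) cross the lower dotted line.

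The promoters of the targets Hey2 and Hes5 and of Sox2 are shown because they hold letters that RBPJ or SOX proteins are known to bind. RBPJ binds the letters GTGGGAA, and these or their reverse complement TTCCCAC occurred in the 250 bases before the start of 5.42% of 32851 RefSeq promoters (GRCm38.p6). They occurred in 6 of the 38 genes of the Notch list that could be matched by symbol, Hes5, Hes7, Hey2, Lfng, Psen2 and Spen. Of the 10 genes, 7 could be matched, and 0 of these held the letters in that window; Sox9, Hes1 and Hey1 were not matched. For SOX proteins the letters ACAAAG or their reverse CTTTGT were searched in the same window. They were held by 16.5% of all promoters and 1 of the 7 matched genes, Sox2. Both percentages count promoters, while a gene was counted if any of its listed promoters held the letters. The percentages and the gene counts are thus in unlike units. The motifs do not overlap each other in letters. Below are 100 bases of each of 3 promoters, read along the gene's strand with the matches in capitals; Hes5 has a second match outside the stretch shown. Hey2 lies at chr10:30842921-30843020 on the minus strand, Hes5 at chr4:154960673-154960772 and Sox2 at chr3:34649759-34649858, both on the plus strand. The first match starts 207 bases before the start of Hey2, 226 before that of Hes5 and 206 before that of Sox2.
Hey2: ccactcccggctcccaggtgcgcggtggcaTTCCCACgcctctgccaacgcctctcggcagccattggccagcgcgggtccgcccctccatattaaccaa
Hes5: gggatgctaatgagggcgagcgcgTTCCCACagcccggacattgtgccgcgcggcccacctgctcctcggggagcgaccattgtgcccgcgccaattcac
Sox2: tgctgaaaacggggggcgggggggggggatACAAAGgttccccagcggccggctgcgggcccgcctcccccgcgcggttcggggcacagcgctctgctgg
In stem cell-like cells Hey2, with 1 match, stood at 142 and 146 CPM. Hes5, with 2 matches, stood at 1.23 and 0, and these levels are not compared between the genes. A match is a run of letters and not a measured binding site.

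Prrx1 was somewhat lower in old stem cell-like cells, at 150 and 118 CPM, a ratio of 0.786 (0.687 to 0.896), and at thinned shares of 22.1% (19.5 to 24.8) and 18.9% (14.5 to 23.9). Its close relative Prrx2 stood at 63.8 and 32.9 CPM, a ratio of 0.515 (0.401 to 0.655). Empty droplets held 7.38 and 5.14 CPM of Prrx1. Of 29 listed progenitor genes, Prrx2 among them, 26 could be measured in the class. Of these, 0 were at least 2-fold lower and 0 at least 2-fold higher, beside 2.06% and 4.22% of all genes measured. Their median log2 ratio was 0.04, beside 0.03 over all genes measured. The highest progenitor gene listed was Klf4, a pluripotency factor gene that also responds early to stimulation, at 722 and 833 CPM. Next were the eye and pituitary homeobox genes Six3 at 717 and 621 and Six6 at 507 and 427.

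Of the 46 other Notch pathway genes, 39 could be measured in stem cell-like cells. Dll1 was the 1 gene at least 2-fold lower and Dner the 1 at least 2-fold higher, and the median log2 ratio was −0.09, beside 2.06% and 4.22% and a median of 0.03 over all genes measured. The highest of the list were Psenen, a gamma-secretase subunit gene, at 222 and 196 CPM, Dlk1 and Hey2. The gamma-secretase gene Psen2 stood at 133 and 84.0 CPM and the fringe gene Lfng, whose product adds sugar to Notch receptors, at 12.4 and 6.24. Rbpj itself stood at 59.8 and 53.2 CPM, a ratio of 0.890 (0.725 to 1.09). Of 16 other Sox genes 6 could be measured, 0 were 2-fold apart in either direction, and the median log2 ratio was 0.02. The highest of these were Sox4, a relative of Sox11, at 502 and 437 CPM, Sox6 at 41.7 and 52.0 and Sox5 at 32.6 and 29.1.

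Within the thinned stem cell-like cells the genes were spread widely. At least 1 of Sox2 and Sox9 was found in 71.3% (68.4 to 74.1) of young and 71.2% (65.5 to 76.4) of old cells, and both together in 19.2% (16.8 to 21.8) and 26.7% (21.6 to 32.3). A UMI of Hes1 or Hey1 was found in 56.8% (53.6 to 59.9) and 48.0% (42.1 to 54.1). A Notch receptor together with Hes1 or Hey1 was found in 17.9% (15.5 to 20.4) and 16.4% (12.2 to 21.2), and none of the 10 genes in 6.23% (4.80 to 7.93) and 8.54% (5.55 to 12.4). The median cell had UMIs of 2 of the 10 genes in each library. Among young cells with a Sox2 UMI, 31.6% (27.9 to 35.5) had one of Sox9, and among those without, 26.8% (22.5 to 31.6). In the old library these shares were 46.3% (38.4 to 54.3) and 31.9% (23.7 to 41.1). For Sox11 they were 17.8% (14.8 to 21.1) and 12.2% (9.13 to 15.9) in the young library and 6.79% (3.44 to 11.8) and 11.8% (6.58 to 19.0) in the old one. At 2000 UMIs per cell a missing UMI does not show that a cell lacks the transcript.

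**Figure D3:**
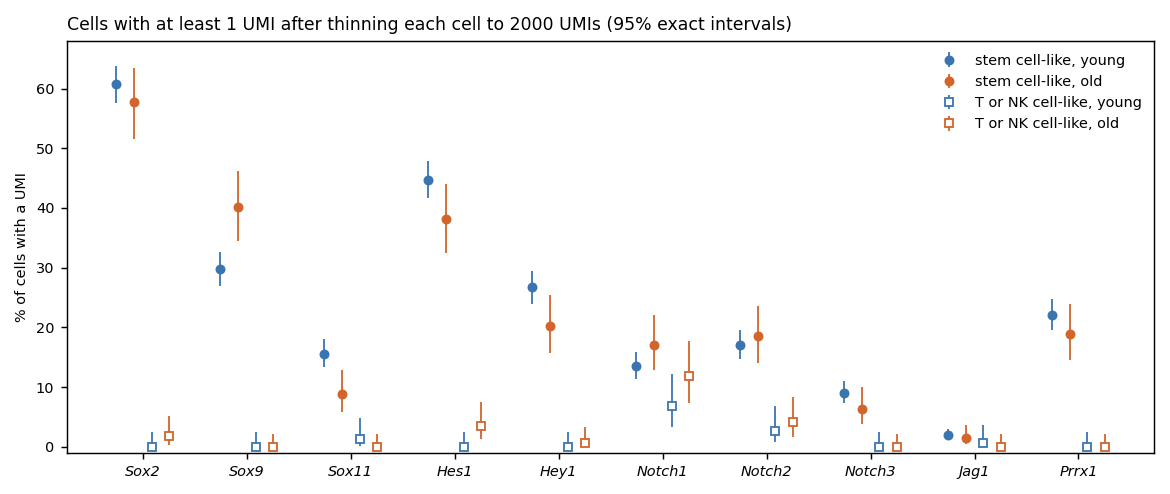
Percent of cells with at least 1 UMI of each gene (vertical axis) after every cell was thinned to 2000 UMIs, in stem cell-like cells (filled circles) and T or NK cell-like cells (open squares) of the young and old library, with 95% exact intervals. Sox9 is found in more old than young stem cell-like cells, Sox11 in fewer, and Notch1 also in T or NK cell-like cells, at 6.80% and 11.8%.

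Among glia, pituicyte-like cells of the posterior lobe carried Sox2, Sox9 and Hes1 but little Hey1, Notch3 or Prrx1. The class held 52 young and 88 old cells. Sox2 stood at 238 and 188 CPM (ratio 0.790, 0.596 to 1.05) and Sox9 at 164 and 223 (ratio 1.36, 0.999 to 1.88), and both intervals hold 1. The ratio of Sox9 was 0.883 as a mean over cells, its thinned share of cells was 23.1% (12.5 to 36.8) and 13.6% (7.25 to 22.6), and 5 cells held 23 of 55 young and 87 of 166 old UMIs, so no direction is read for it. That of Sox2 was 0.571 as a mean over cells and 1.06 with a mitochondrial limit of 10%. Both genes were second only to stem cell-like cells among the 16 classes with at least 20 cells of a library, although for Sox2 in the old library the interval overlapped that of endothelial cell-like cells. Sox9 made up 40.7% (32.4 to 49.5) of Sox2 and Sox9 UMIs in young and 54.2% (48.5 to 59.9) in old pituicyte-like cells, above the 29.4% and 38.4% of stem cell-like cells. Hey1 had 4 and 11 UMIs, 4.76% (1.31 to 11.7) and 7.28% (3.69 to 12.7) of Sox2 and Hey1 UMIs. In stem cell-like cells Hey1 made up 23.5% and 22.3%, outside those intervals. Low shares of Hey1 were not particular to pituicyte-like cells. Gonadotroph-like cells had 7.84% and 5.00%, melanotroph-like cells 9.09% and 12.1% and old oligodendrocyte-like cells 4.55%, all from few UMIs. Corticotroph-like cells had 37.9% and 21.0%.

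Notch1 and Notch2 were each about 2-fold lower in old pituicyte-like cells. Notch1 stood at 68.6 and 32.3 CPM, a ratio of 0.471 (0.255 to 0.873), and Notch2 at 74.5 and 36.3, a ratio of 0.487 (0.272 to 0.876). They rest on 23 and 24 UMIs of Notch1 and 25 and 27 of Notch2, and the old Notch2 level is below the 59.8 CPM of old empty droplets. With a mitochondrial limit of 25% the ratio of Notch1 was 0.639, and with one of 10% that of Notch2 was 0.657. Of 7 of the 10 genes measured in the class these 2 were at least 2-fold lower and 0 higher, beside 2.99% lower and 10.4% higher among all genes measured. Hes1 stood at 340 and 223 CPM, a ratio of 0.657 (0.515 to 0.842) close to that in stem cell-like cells. The 5 cells with most Hes1 held 57 of 114 young and 68 of 166 old UMIs. The ratio of Hes1 was 0.527 as a mean over cells and 0.890 with a mitochondrial limit of 10%. Prrx1 had 0 young UMIs and 8 old ones, 10.8 CPM, and Notch3 had 1 and 0. Dlk1, the ligand-like gene, was at 230 CPM in young and 1063 in old pituicyte-like cells, a ratio of 4.63 (3.66 to 5.93). It was named after its value was seen. Of 23 Notch list genes measured in the class, 1 was at least 2-fold lower and 3 higher, beside 2.99% and 10.4% of all genes measured. The part of free RNA or of single cells in the Dlk1 levels was not tested. The stem cell markers summed to 912 and 418 CPM in the class, with Cdh26 at 0 in both libraries, against 16429 and 14868 in stem cell-like cells; their part in these values was not tested.

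Oligodendrocyte-like cells, 38 in the old library and 0 in the young one, carried Sox2 without Sox9. Their 21 Sox2 UMIs gave 83.3 CPM (51.5 to 127), against 22.8 in old empty droplets, and 0 UMIs were of Sox9, which allows up to 11.9 CPM by a limit of 3 counts. Each of Hes1, Hey1, Notch1, Notch2, Jag1 and Prrx1 had 1 UMI. The glial Sox genes Sox10 and Sox8, which work in myelinating cells, stood at 198 and 115 CPM.

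**Figure D4:**
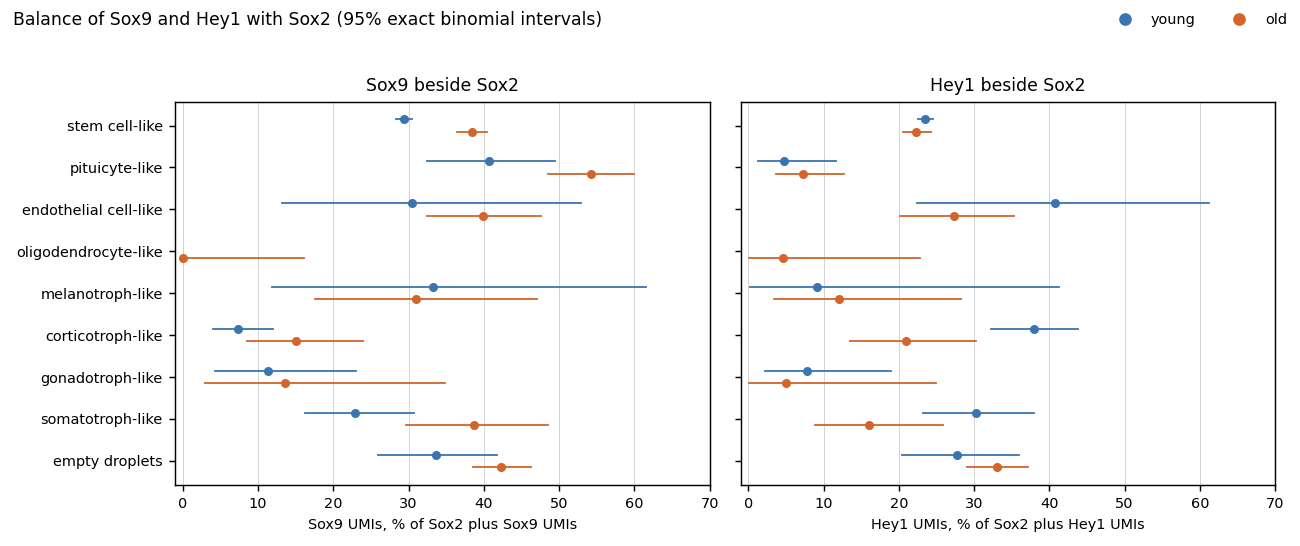
Sox9 UMIs as a percent of Sox2 plus Sox9 UMIs (left) and Hey1 UMIs as a percent of Sox2 plus Hey1 UMIs (right), by cell class and in empty droplets, for the young and old library, with 95% exact binomial intervals. Corticotroph-like, gonadotroph-like and oligodendrocyte-like cells lie below empty droplets for Sox9. Pituicyte-like cells lie low for Hey1, as do gonadotroph-like, melanotroph-like and oligodendrocyte-like cells.

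Among endocrine cells, Sox2 was found with little Sox9 in corticotroph-like cells and in the few gonadotroph-like cells. Corticotroph-like cells, which make the precursor of corticotropin, numbered 1253 young and 309 old. Sox2 stood at 22.9 and 28.1 CPM, a ratio of 1.23 (0.929 to 1.61), against 4.11 and 8.99 in somatotroph-like and 3.48 and 6.50 in T or NK cell-like cells. Sox9 made up 7.33% (4.07 to 12.0) and 15.1% (8.48 to 24.0) of the UMIs of both genes, below the 33.6% and 42.3% of empty droplets. Corticotroph-like cells with no UMI of any stem cell marker, 855 young and 152 old, held 23.3 and 20.2 CPM of Sox2. The 5 cells with most Sox2 held 21 of 177 young and 20 of 79 old UMIs. Empty droplets held 45.7 CPM of Sox2 in the young library, above the class, and 22.8 in the old one, below it, and barcodes of 500 to 900 UMIs held 21.9 and 21.6. By comparison, lactotroph-like cells had 4.57 and 4.83 and macrophage-like cells 5.07 and 3.69.

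Hey1 stood at 14.0 and 7.48 CPM in corticotroph-like cells, a ratio of 0.534 (0.318 to 0.858). Both levels are below the 17.5 and 11.2 CPM of empty droplets, barcodes of 500 to 900 UMIs held 8.95 and 10.0, and somatotroph-like cells 1.78 and 1.72. The thinned share of corticotroph-like cells with a Hey1 UMI was 2.31% (1.56 to 3.31) in the young library and 1 of 309 cells in the old one. Hes1 had a ratio of 0.526 whose interval (0.227 to 1.09) holds 1. Of 7 genes measured in the class, Sox9 (14 and 14 UMIs, ratio 2.75) and Prrx1 (9 and 11 UMIs, ratio 3.36) were at least 2-fold higher, and 0 lower, beside 3.93% higher and 2.95% lower of all genes measured. Both lay below the empty droplet levels at each age, and the ratio of Sox9 was 1.50 as a mean over cells. Of 39 Notch list genes measured in the class, 2 were at least 2-fold lower and 2 higher, and the median log2 ratio was 0.05, beside 0.07 over all genes. The lower ones were the fringe gene Mfng, at 62.9 and 24.9 CPM, a ratio of 0.397 (0.304 to 0.510), and Neurl1b, with 33 UMIs and 0. The higher ones were Aph1c, for a gamma-secretase subunit, at 4.15 and 10.3 CPM, and the coactivator gene Maml3 at 27.1 and 59.1.

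Sox11 differed widely among the hormone-making classes, and it was lower in old somatotroph-like cells. It stood at 57.0 CPM in young and 16.9 in old somatotroph-like cells, from 1539 and 128 UMIs, a ratio of 0.297 (0.246 to 0.356). It was lower in each of the 4 clusters of the class, at 48.4 and 10.9, 53.1 and 15.9, 88.1 and 10.6, and 80.1 and 23.1 CPM. Over all other settings the ratio lay between 0.263 and 0.358. Empty droplets, at 29.5 and 8.87 CPM, differed in the same direction, and young somatotroph-like cells were at 57.0 against 5.22 in young T or NK cell-like cells. In lactotroph-like cells, the prolactin producers, Sox11 stood at 84.6 and 69.4 CPM, a ratio of 0.821 (0.650 to 1.03) whose interval holds 1. Melanotroph-like cells of the intermediate lobe had 117 and 57.9 CPM, from 43 young and 150 old cells. Corticotroph-like cells had 4.93 and 7.84 CPM, below empty droplets at both ages and the lowest of the 16 classes in the young library. In the young library proliferating cell-like cells were highest, at 127 CPM (103 to 154), with an interval that overlaps those of melanotroph-like (74.4 to 176) and stem cell-like cells (102 to 117). In the old library stem cell-like cells (60.3 CPM) and lactotroph-like (69.4), pituicyte-like (57.9) and melanotroph-like (57.9) cells did not differ beyond their intervals.

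Of 8 of the 10 genes measured in somatotroph-like cells, Sox11 was the 1 at least 2-fold lower and 3 were at least 2-fold higher, beside 3.93% lower and 5.39% higher among all genes measured. The 3 were Sox2 at 4.11 and 8.99 CPM, Sox9 at 1.22 and 5.68 and Prrx1 at 0.630 and 2.78, all below the level of empty droplets in the same library. A single old cell held 22 of the 43 Sox9 UMIs, and without the highest cell of each library the ratio of Sox9 was 2.42 in place of 4.65. With a mitochondrial limit of 10% the ratio of Sox2 was 1.80 in place of 2.19. In lactotroph-like cells 4 genes could be measured, and Hes1, with 16 and 23 UMIs, was higher at a ratio of 2.28 (1.15 to 4.61) and below the level of empty droplets. The ratio was 1.90 with a mitochondrial limit of 10% and 4.38 at a Leiden resolution of 2. None of the 4 was at least 2-fold lower there, and the shares over all genes measured were 6.05% higher and 2.34% lower.

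Gonadotroph-like and melanotroph-like cells were few. In 62 young and 35 old gonadotroph-like cells Sox2 stood at 77.1 CPM (56.7 to 103) and 47.8, but 5 cells held 28 of the 47 young and 17 of the 19 old UMIs. Sox9 made up 11.3% (4.27 to 23.0) and 13.6% (2.91 to 34.9) of the UMIs of both genes there. Melanotroph-like cells carried Prrx1 at 66.3 and 46.2 CPM, far above the other hormone-making classes, which had at most 3.92, and above the 7.38 and 5.14 of empty droplets. The 5 cells with most Prrx1 held 10 of the 13 young and 18 of the 47 old UMIs, and without the highest cell the levels were 44.3 and 43.0 CPM.

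In vessels, Notch1 and Hes1 were high in the endothelial cell-like class with or without its cells rich in stem cell markers, while nearly all its Sox2 and Sox9 UMIs lay in those cells. The class held 85 young and 79 old cells. Notch1, the main arterial and sprouting receptor, stood at 161 CPM (124 to 205) and 193 (161 to 231), the highest of any class in each library, with intervals clear of the next in rank, stem cell-like cells. In the young library its interval overlapped that of the 25 neutrophil-like cells, at 88.5 CPM (42.4 to 163). The ratio of Notch1 was 1.20 (0.882 to 1.65), and 0.879 with each library clustered alone. Hes1 stood at 498 and 338 CPM, a ratio of 0.678 (0.557 to 0.827). Counted over all cells of the class, its intervals overlap those of stem cell-like cells in both libraries. Outside the cells rich in stem cell markers its levels were lower, as given below. Jag1 stood at 17.3 and 20.6 CPM from 7 and 13 UMIs. The endothelial Sox genes Sox18 and Sox7 stood at 144 and 151 and at 49.5 and 80.8 CPM.

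Sox2 stood at 39.6 CPM in young and 165 in old endothelial cell-like cells, a ratio of 4.16 (2.45 to 7.55), and Sox9 at 17.3 and 109, a ratio of 6.31 (2.90 to 16.3). The 10 cells of the class with most stem cell marker UMIs, a number chosen after seeing the data, held all 16 young and 101 of the 104 old Sox2 UMIs. They held all 7 young and 67 of the 69 old Sox9 UMIs as well. In the other cells Sox2 was at 0 and 7.49 CPM and Sox9 at 0 and 5.00, below empty droplets. The same 10 cells held 5 of 65 young and 32 of 122 old Notch1 UMIs, and Notch1 in the others was at 190 and 225 CPM. The 10 cells also held 96 of 201 young and 106 of 213 old Hes1 UMIs. Hes1 in the others was at 333 and 267 CPM, below the intervals of stem cell-like cells (571 to 606 and 364 to 415). Jag1 in the others was at 22.2 and 22.5. Of Hey1 those 10 cells held 7 of 11 young and 28 of 39 old UMIs, and Hey1 in the others was at 12.7 and 27.5 CPM. Of 8 genes measured in the class, Sox2, Sox9 and Hey1 (27.2 and 61.8 CPM, ratio 2.27) were at least 2-fold higher and 0 lower, beside 8.18% higher and 5.03% lower of all genes measured. With a minimum of 3000 UMIs the ratio of Sox2 was 1.22 and that of Sox9 1.63, and with a mitochondrial limit of 25% that of Hey1 was 1.41. All 7 stem cell markers had UMIs in the class, summing to 1562 and 4276 CPM.

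**Figure D5:**
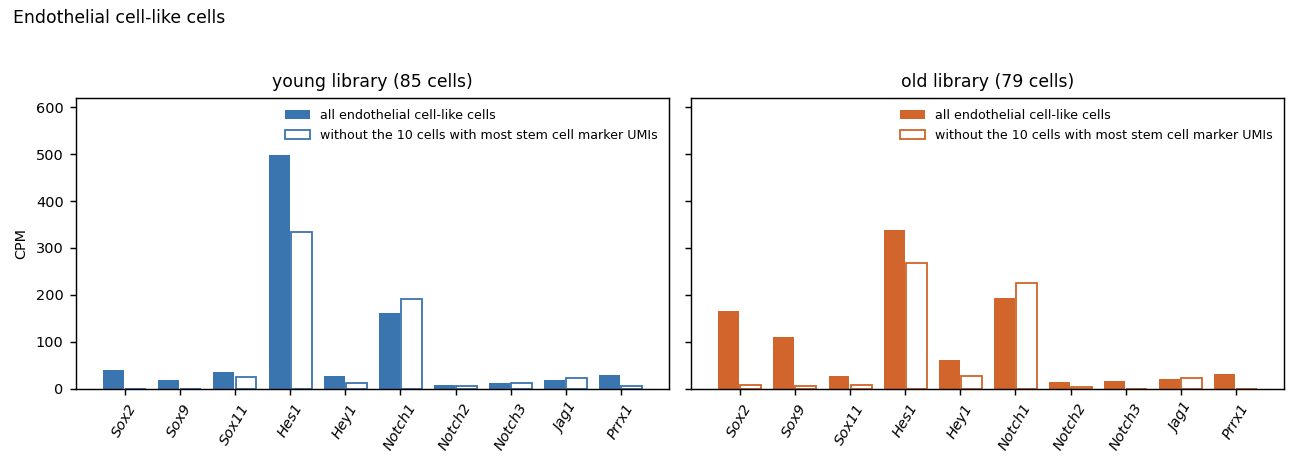
Level of each of the 10 genes in CPM (vertical axis) in all endothelial cell-like cells (filled bars) and without the 10 cells with most stem cell marker UMIs (open bars), for the young and old library. Without those cells Sox2 goes from 165 to 7.49 in the old library while Notch1 goes from 193 to 225.

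Fibroblast-like cells, 31 young and 39 old, had the highest Jag1, at 80.7 CPM (41.7 to 141) and 52.9 (29.6 to 87.2), with intervals that overlap the next class in each library. Notch3, the receptor of mural cells, stood at 40.3 and 45.8 CPM, overlapping stem cell-like cells. Of its 13 old UMIs 12 lay in 4 cells with at least 3 of 8 mural cell markers, and of its 6 young UMIs 1 lay in 2 such cells, and cells with mural cell markers were thus not separated from the class. Those cells held 2 of 15 old and 4 of 12 young Jag1 UMIs. Notch2 stood at 60.5 and 106 CPM, Hes1 at 323 and 226, Prrx1 at 87.4 and 56.4 and Sox9 at 53.8 and 42.3, while Sox2 had 1 and 2 UMIs. Sox9 rests on 8 and 12 UMIs, of which 5 cells held 7 and 9. Its young interval (23.2 to 106) overlaps that of young empty droplets (17.1 to 30.4). The Sox2 UMIs allow up to 37.5 and 25.5 CPM, so Sox2 is not shown to be absent. Of Sox2 and Sox9 UMIs, Sox9 made up 88.9% (51.8 to 99.7) and 85.7% (57.2 to 98.2), against 0% (0 to 16.1) in old oligodendrocyte-like cells.

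The genes most like each of the 10 over cell classes were found by the correlation of log2(CPM + 5) over 32 class-by-library points. These points share libraries and depth, so r is a description. Sox2 was most like Aldoc, a glycolytic enzyme gene of astrocytes (r = 0.921), then Id4 and Erbb4. Sox9 was most like the growth factor gene Tgfb2 (0.916), Gsta4 and Mdk. Sox11 was most like Rragd (0.861), Hmgn3 and Six3, and Hes1 like Castor1 (0.862), Lamb2 and Ifitm3. Hey1 was most like its relative Hey2 (0.907), then Tril and Cyp2f2, the last of which was used to name the stem cell-like class. Notch1 followed Ctdsp1 (0.885), Vamp5 and Myl12a, while no gene passed 0.710 for Notch2, which was reached by Smim3, with Flna and Plxnc1 next. Notch3 was most like Boc, a co-receptor gene of hedgehog signalling (0.972), Plat and Prrx2. Jag1 was most like the protease gene Adamts1 (0.938), Samd4 and Igfbp4, and Prrx1 like Pde5a (0.875), Ndrg2 and Ltbp4. Among the 10 genes themselves the highest values were those of Notch3 with Prrx1 (0.814), Sox9 with Hey1 (0.812) and Sox2 with Sox9 (0.802).

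The files identify the genes as ENSMUSG00000074637 (Sox2), ENSMUSG00000000567 (Sox9), ENSMUSG00000063632 (Sox11), ENSMUSG00000022528 (Hes1), ENSMUSG00000040289 (Hey1), ENSMUSG00000026923 (Notch1), ENSMUSG00000027878 (Notch2), ENSMUSG00000038146 (Notch3), ENSMUSG00000027276 (Jag1) and ENSMUSG00000026586 (Prrx1), and all are annotated as protein-coding. Some reads may be shared with overlapping genes. Sox2 lies within Sox2ot, a noncoding RNA gene on the same strand with 314 young and 134 old UMIs in stem cell-like cells. Notch1 overlaps 0610009E02Rik on the opposite strand, with 42 and 17 UMIs there, and Notch3 overlaps Gm17276, with 7 and 3. How the counting set strand is not given in the sources used here.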

How the data were processed

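Raw UMI counts per gene and barcode were deposited by the authors for each library, with no cell calling or normalisation. Reads were processed with Cell Ranger 6.0.2 and the GRCm39 build, per the submitters' processing notes; version 4 is given in the file header. Barcodes with at least 2000 UMIs, 500 genes and at most 15% mitochondrial UMIs were kept (9210 young, 9783 old). Scrublet's own threshold marked 0% and 0.0307%, so the highest-scoring 679 and 766 barcodes were dropped, 0.8% per 1000 barcodes. Both libraries were clustered together without integration: 3000 variable genes without the 10 genes and the lists, 40 components rounded to 3 decimals, 15 neighbours, Leiden resolution 1. A cluster was named by its mean marker score (at least 1, leading by 0.5, with 3 markers detected), and called free RNA at r of 0.95 or more with droplets of 10 to 100 UMIs. An unnamed cluster led by Gh held 307 young and 196 old barcodes.

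CPM exclude 7 hormone and 13 mitochondrial genes. Intervals are exact Poisson for levels, exact conditional for ratios and Clopper-Pearson for shares. Ratios were computed for classes of at least 50 cells in each library and genes of at least 20 UMIs over both. UMIs are not independent mice, and the number of UMIs of a gene sets the width of its interval. Named besides the 10 genes are the 3 most like each (at least 50 CPM in 1 point), list genes at least 2-fold apart in stem cell-like cells with 20 UMIs in the higher library, and the 3 highest of a list in a class; Jag2, Dlk1, Hes5, Hes6, Heyl, Nrarp, Psen2, Lfng, Rbpj, Prrx2, Mfng, Neurl1b, Aph1c, Maml3, Sox7, Sox8, Sox10 and Sox18 beyond these were named after their values were seen. The 10 genes, the lists, the markers and the details of the naming rule were chosen with earlier results of these data known. The calculation was checked on simulated counts. Software was scanpy 1.11.5 with igraph 0.11.9 and scikit-learn 1.9.0 for clustering, numpy 2.4.6 and scipy 1.17.1 for intervals and matplotlib 3.10.9 for figures, in Python 3.11.15. Promoters are from RefSeq, GRCm38.p6, and overlaps of genes from GENCODE vM21; no other coordinates are given, since the counts use another build.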

Additional observations from a re-analysis of the deposited data

How the results depend on the processing

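No paired analysis was possible because each age has a single library and no result comes from a test. In every setting tried, 0 of the 10 genes were 2-fold apart in stem cell-like cells, and the ratios of Sox9 and Notch2 stayed above 1 and those of Sox2, Sox11, Hes1, Hey1, Notch3, Jag1 and Prrx1 below it; Notch1 reached 1.00 as a mean over cells. The share of stem cell-like cells with a Sox2 UMI was 57.9% in the young library without removal of doublets, 59.9% in the old library with a minimum of 3000 UMIs and 61.1% with a mitochondrial limit of 10%, and 86.9% young and 85.8% old without thinning. Outside stem cell-like cells, small sums moved most: subtracting the free RNA of barcodes of 500 to 900 UMIs gave ratios of 53.7 for Sox9 and 172 for Prrx1 in somatotroph-like cells. Leaving out the cell with most UMIs of a gene, an alternative chosen after seeing the data, moved Sox9 in endothelial cell-like cells to 29.4 and Sox2 to 21.8. The young cells left out held 6 of 7 Sox9 and 14 of 16 Sox2 UMIs, so these ratios rest on very few young UMIs. Levels under that of empty droplets, and classes of under 100 cells such as pituicyte-like, endothelial cell-like and fibroblast-like ones, are limited by depth.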
